A study of Caenorhabditis elegans with 12 samples.

Results

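The genes described here encode the enzymes and carriers with which *Caenorhabditis elegans* activates fatty acids and breaks them down by beta-oxidation. Members were chosen by symbol alone, as every gene named *acs*, *acdh*, *acox*, *ech*, *hacd*, *cpt* or *acbp* with a number, and 65 of the 46546 named genes in the count files met this rule. They comprised 22 *acs*, 13 *acdh*, 10 *ech*, 7 *acox*, 6 *acbp* and 6 *cpt* genes and 1 *hacd* gene. The study grew wild-type N2 hermaphrodites at 20 °C on *E. coli* OP50, from L1 onward, with or without cadmium chloride (Cd) in the food. Its groups were worms with 20 µM Cd (exposed) collected at L4 (47 h), worms with 0 µM Cd (unexposed) collected at L4, exposed worms collected at L3 (27 h) and unexposed worms collected at L3. Each group had 3 biological replicates, and poly-A RNA of whole worms was sequenced in 12 libraries. Worms at L4 had also fed and, where exposed, met Cd for longer than worms at L3, so stage and length of exposure cannot be told apart. By symbol, 64 of the 65 members were found in the Ensembl release 115 annotation of the WBcel235 genome, all 64 as protein-coding genes that overlap the deposited position on the same strand, and *acs-23* was not matched by symbol.

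A fatty acid must be joined to coenzyme A before it can be used, which is the work of the acyl-CoA synthetases (*acs*), and the acyl-CoA binding proteins (*acbp*) then carry the product through the cell. Carnitine palmitoyltransferases (*cpt*) move long chains into mitochondria. Each round of beta-oxidation begins with a dehydrogenation, by acyl-CoA dehydrogenases (*acdh*) in mitochondria or by acyl-CoA oxidases (*acox*) in peroxisomes, followed by hydration (enoyl-CoA hydratases, *ech*), a further dehydrogenation (hydroxyacyl-CoA dehydrogenases, *hacd*) and cleavage by a thiolase. In *C. elegans* the peroxisomal oxidases also shorten the side chains of ascarosides, the small molecules with which worms signal to each other. *acdh-1* and *ech-6* serve a further route, the propionate shunt, which breaks down propionate when vitamin B12 is scarce.

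The libraries held from 23899991 to 44766672 counts on named genes, with a median of 35785126.5. Read counts scaled to library size (CPM) of the metallothionein gene *mtl-1*, a known Cd-responsive gene, lay between 15.5 and 22.3 in exposed and between 1.26 and 3.14 in unexposed L4 libraries, and between 219 and 260.3 in exposed and between 4.94 and 6.37 in unexposed L3 libraries. The libraries of unexposed L3 worms were not alike. For 36 of the 57 members tested at L3 (63.2%), and for 54.6% of all genes tested there, unexposed replicate 3 was the unexposed library nearest to the exposed mean. Among the 25 members with an unadjusted p below 0.05 at L3 (43.9%, against 26% of all genes), it was the nearest in 22. The like share among all genes with such a p was not counted, so this cannot be called particular to the members. The summed level of 6 hypodermis and moult markers set the same library apart, at 1620 CPM against 770.4 and 749 CPM in unexposed replicates 1 and 2, while exposed L3 libraries had 1469.8 to 1591 CPM. Its part in the results was not tested, and the L3 calls are also given without it.

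The 65 members together took 0.465% to 0.482% of the counts of exposed and 0.485% to 0.508% of unexposed L4 libraries, and 0.648% to 0.705% of exposed and 0.691% to 0.702% of unexposed L3 libraries. Per length of transcript, as the mean of RPKM (CPM divided by the gene's length in kilobases) over the 12 libraries, *acbp-1* was the most abundant member with 374 RPKM, followed by *ech-6* with 348, *acdh-1* with 265, *ech-7* with 146 and *acs-19* with 141 RPKM. The leading gene of the *cpt* class was *cpt-1* (115 RPKM), *hacd-1* stood at 65.4 RPKM and the leading oxidase was *acox-1.1* (59.9 RPKM). At the other end, *cpt-3* never had more than 5 counts in a library and was tested nowhere. Summed over all 65 members, TMM-scaled levels were 4889 ± 313 CPM in exposed and 5414 ± 233 CPM in unexposed L4 worms, and 6245 ± 95.2 CPM in exposed and 6697 ± 85.2 CPM in unexposed L3 worms (mean ± SD, n = 3 each). On this scale every exposed library was below every unexposed one at both stages. At L3 this order depends on the scaling. As a share of counts, exposed L3 replicate 1 had 0.705%, above the highest unexposed L3 library (0.702%). On the TMM scale the *ech* genes were also below in every exposed library at both stages, with 802 ± 71.9 CPM in exposed and 937 ± 24.8 CPM in unexposed L4 worms, and 1311 ± 26.5 CPM in exposed and 1362 ± 36.4 CPM in unexposed L3 worms. The *acs* genes together had 1921 ± 164 CPM in exposed and 2248 ± 275 CPM in unexposed L4 worms, and 1664 ± 45.2 CPM in exposed and 1667 ± 16.3 CPM in unexposed L3 worms (mean ± SD, n = 3 each). The *acdh* genes had 956 ± 63.8 CPM in exposed and 1009 ± 48.3 CPM in unexposed L4 worms, against 1653 ± 45.4 and 1664 ± 37.4 CPM in exposed and unexposed L3 worms. For *acdh* the groups overlapped at both stages, and for *acs* at L3. At L4 the *cpt* genes had 607 ± 23.8 CPM in exposed and 552 ± 40.9 CPM in unexposed worms. The *acox* genes had 334 ± 5.84 and 332 ± 17.1 CPM there, and the groups overlapped in both classes. Abundant members weigh most in such sums. Of the 63 members tested at L4, 41 had a higher and 22 a lower value in exposed worms. At L3 these numbers were 21 and 36 of the 57 tested. The like split over all genes was not counted. All sums are given without a test.

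In L3 worms, 5 of the 57 members that could be tested were called between exposed and unexposed worms, and these calls depended on the libraries and fit used. *acs-2* and *acdh-2*, an acyl-CoA synthetase and an acyl-CoA dehydrogenase gene, were higher in exposed worms, and *acs-20*, *acox-1.2* and *acdh-6* were lower. Differences were tested with the quasi-likelihood test of edgeR, with p-values Benjamini-Hochberg adjusted over all genes tested, and a call needed an adjusted p of at most 0.05 and a log2 fold change of at least 1 in either direction. The 2 higher members were 3.51% of those tested, where 0.246% of all genes tested were called higher, and the 3 lower ones were 5.26%, where 3.38% of all genes were called lower. The median log2 fold change was -0.07 over the 57 members and 0.01 over all genes tested. Exposed libraries lay above every unexposed one in 10 members (17.5%, against 18% of all genes) and below every one in 16 (28.1%, against 15.7% of all genes). In whole worms a lower level can mean fewer cells of a type or less RNA per cell, which cannot be told apart.

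*acs-2* (chrV:15567394-15569889, forward strand, WBcel235) encodes an acyl-CoA synthetase known as a target of the nuclear receptor NHR-49, which turns on fat breakdown in fasting worms. It had 193, 215 and 158 CPM in exposed L3 libraries, against 52.2, 45.02 and 83.2 CPM in unexposed ones. The groups did not overlap, and the highest unexposed library was replicate 3. The log2 fold change was 1.63 ± 0.23 (SE, adjusted p = 0.0133, quasi-likelihood test), and it was 1.94 without unexposed replicate 3. *acdh-2* (chrII:5544781-5547492, reverse strand), a paralog of *acdh-1*, had 109, 101 and 88.1 CPM in exposed L3 libraries, against 28.2, 23.8 and 51.4 CPM in unexposed ones. Here too unexposed replicate 3 was nearest to the exposed libraries, without reaching them. Its log2 fold change was 1.51 ± 0.27 (SE, adjusted p = 0.0221, quasi-likelihood test), and 1.91 without that library. Exons of *acdh-2* share 71 bases with those of *ins-13* on the same strand, and *ins-13* had at most 3 counts in a library.

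*acs-20* (chrIV:12392121-12398706, reverse strand) belongs to the fatty acid transport protein branch of the synthetases and is known to act with *acs-22* in forming the surface barrier of the cuticle. It had 34.8, 34.2 and 39.95 CPM in exposed L3 libraries, against 106, 109 and 69.8 CPM in unexposed ones. The exposed libraries were close together and all below the unexposed ones, with a log2 fold change of -1.41 ± 0.17 (SE, adjusted p = 0.0124, quasi-likelihood test). *acs-22* had 191, 189 and 170.1 CPM in exposed L3 libraries, against 238, 212 and 206 CPM in unexposed ones. Its exposed libraries were also all below the unexposed ones, but its log2 fold change of -0.27 ± 0.086 did not pass (SE, adjusted p = 0.103, quasi-likelihood test). Among the hypodermis and moult markers, *mlt-10* had 53.7, 50.9 and 69.4 CPM in exposed L3 libraries, against 194, 185 and 134 CPM in unexposed ones (log2 fold change -1.58, adjusted p = 0.0124, quasi-likelihood test). It was the single marker of the 6 that was called, and most others had values in the opposite direction. The log2 fold changes were 0.69 for *dpy-7*, 0.50 for *elt-3*, 0.71 for *nhr-23* and 0.80 for *mlt-11*, against -0.89 for *nhr-25*, and the median of the 6 was 0.60. The part of moult timing in the values of *acs-20* was not tested.

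*acox-1.2* (chrI:12942280-12946562, forward strand) encodes a peroxisomal acyl-CoA oxidase. It had 96.7, 101 and 113 CPM in exposed L3 libraries, against 319.6, 331 and 191 CPM in unexposed ones, a log2 fold change of -1.46 ± 0.20 (SE, adjusted p = 0.013, quasi-likelihood test). Every exposed library had less than any unexposed one. The gene stands in a row of 4 oxidase genes on the forward strand of chromosome I, *acox-1.1* to *acox-1.4*, in which neighbours are 55, 374 and 33 bases apart. The other genes of the row did not pass, and *acox-1.3* had the one value with exposed libraries all above the unexposed ones. *acox-1.1* had 151, 143 and 138 CPM in exposed L3 libraries, against 148, 153 and 143 CPM in unexposed ones (log2 fold change -0.06 ± 0.065, SE). *acox-1.3* had 13.2, 12.7 and 12.9 CPM in exposed L3 libraries, against 9.62, 9.95 and 11.6 CPM in unexposed ones (log2 fold change 0.30 ± 0.10, SE). *acox-1.4* had 66.2, 60.5 and 58.4 CPM in exposed L3 libraries, against 45.3, 42.4 and 59.1 CPM in unexposed ones (log2 fold change 0.32 ± 0.13, SE). These genes are close paralogs, and how reads shared between them were counted is not stated. The oxidases elsewhere in the genome, *acox-1.5*, *acox-1.6* and *acox-3*, had log2 fold changes of -0.53, -0.59 and -0.35 without passing. Together the 7 oxidases had 578 ± 25.3 CPM in exposed L3 worms and 834 ± 126 CPM in unexposed L3 worms (mean ± SD, n = 3 each).

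*acdh-6* (chrIII:8561136-8563026, forward strand), an acyl-CoA dehydrogenase gene, was the least abundant of the 5 and had the lowest ratio. It had 3.1, 2.64 and 3.73 CPM in exposed L3 libraries, against 14.7, 14.8 and 7.4 CPM in unexposed ones. Unexposed replicate 3 again lay between the other unexposed libraries and the exposed ones, and the log2 fold change was -1.98 ± 0.29 (SE, adjusted p = 0.01346, quasi-likelihood test). Without unexposed replicate 3 the log2 fold changes of *acdh-6*, *acox-1.2* and *acs-20* were -2.24, -1.67 and -1.59, and 5 members were called lower in place of 3, with adjusted p for these 3 genes between 1.86e-05 and 4.04e-05 (quasi-likelihood test).

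The 5 calls depended on the other L3 libraries too, while the log2 fold changes kept their sign in every fit. In the fits that left out exposed replicate 1, exposed replicate 2 or unexposed replicate 2, 0 of the 5 passed, and their adjusted p lay between 0.0679 and 0.113 (quasi-likelihood test). The log2 fold changes in these fits were between 1.31 and 1.62 for *acs-2* and *acdh-2*. Without unexposed replicate 1, *acs-20* alone passed, with an adjusted p of 0.0482 (quasi-likelihood test). Without exposed replicate 3, *acdh-2* alone was lost, with an adjusted p of 0.0645 (quasi-likelihood test). Calls over all genes in the fits that left out a library are not given here. The gains and losses, also those without unexposed replicate 3, cannot be called particular to the members.

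**Figure D1:**
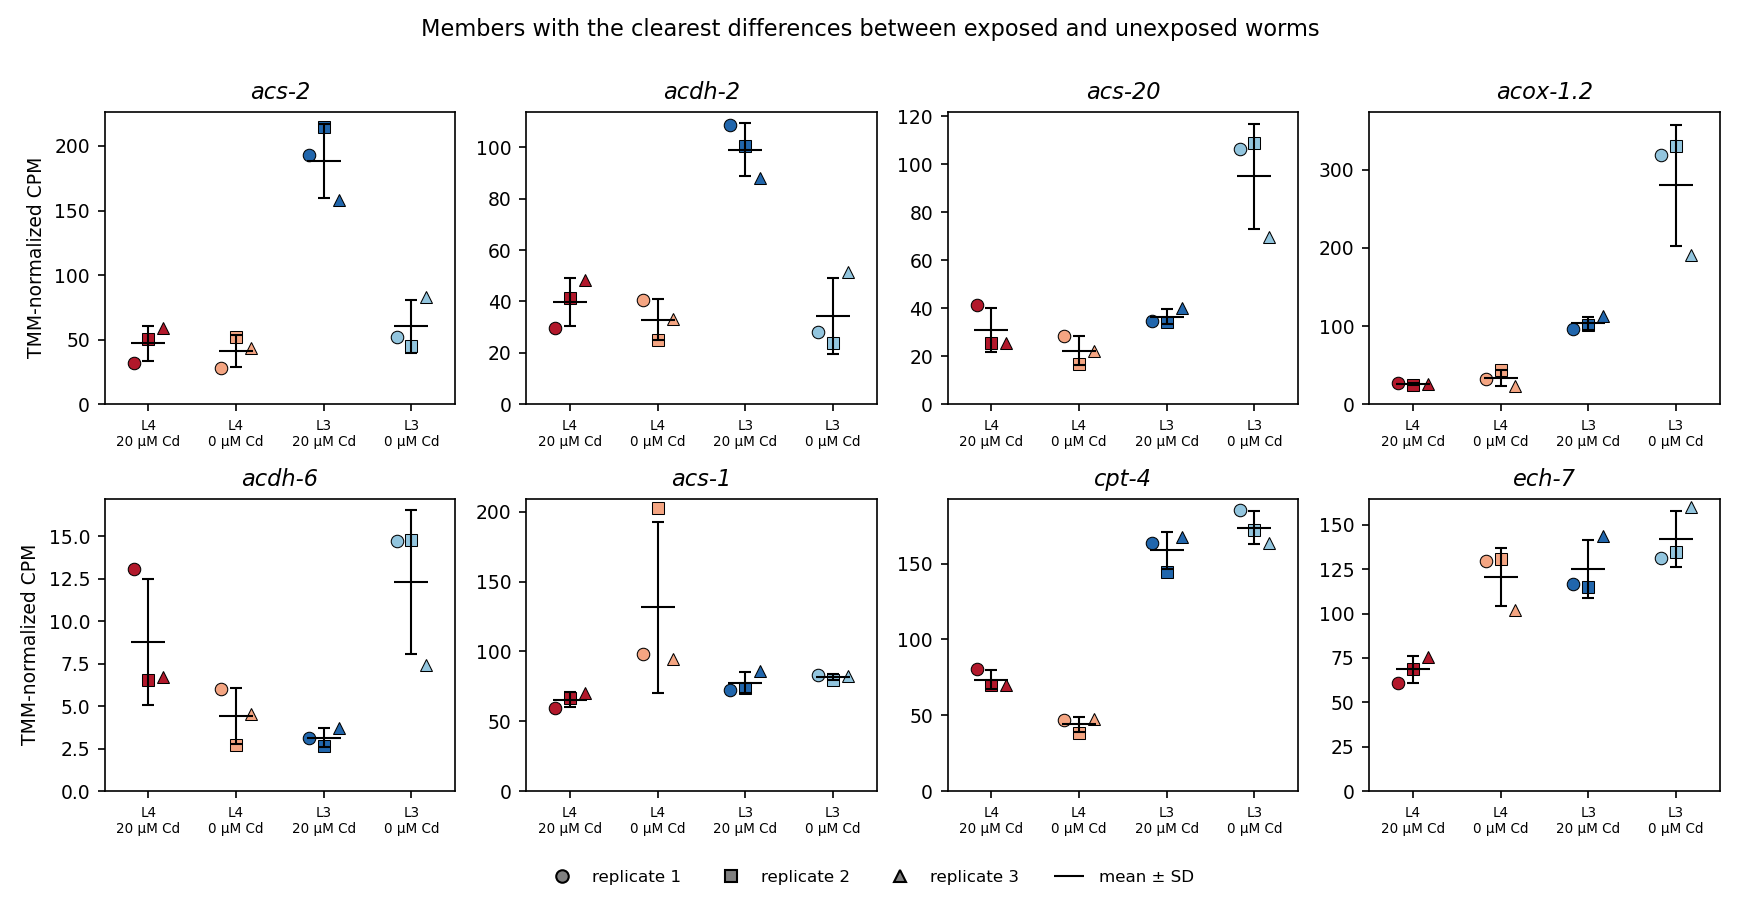
TMM-normalized CPM (linear axes from 0) of 8 members in the 12 libraries, with the exposed group left of the unexposed group at each stage, points for replicates and bars for mean ± SD (n = 3). In L3 worms *acs-2* and *acdh-2* were higher and *acs-20*, *acox-1.2* and *acdh-6* lower in the exposed libraries without overlap, with the triangle of unexposed replicate 3 nearest to the exposed libraries, while *acs-1*, *cpt-4* and *ech-7* were separated only at L4 and did not pass the threshold there.

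The remaining 52 members tested did not pass at L3. DESeq2's Wald test, with the same threshold, called 2 higher and 5 lower members, where it called 0.601% of all genes higher and 4.51% lower, and added *acs-9* and *ech-1.1*. *acs-9* had 1.64, 1.51 and 1.6 CPM in exposed L3 libraries, against 4.85, 3.97 and 2.25 CPM in unexposed ones (log2 fold change -1.22 ± 0.29, SE, adjusted p = 0.051, quasi-likelihood test). About 10.1% of its length overlaps the antisense gene *T20F7.1*, and whether the counting used strand is not stated. *ech-1.1*, a homolog of the alpha subunit of the mitochondrial trifunctional protein, had 0.691, 0.879 and 0.734 CPM in exposed L3 libraries, against 2.26, 1.98 and 1.05 CPM in unexposed ones (log2 fold change -1.21 ± 0.32, SE, adjusted p = 0.0692, quasi-likelihood test). Its far more abundant paralog *ech-1.2* had 355, 346 and 333 CPM in exposed L3 libraries, against 335, 342 and 335 CPM in unexposed ones, and the groups overlapped. The carnitine palmitoyltransferases also stayed under the threshold, with log2 fold changes of -0.17 for *cpt-1*, -0.03 for *cpt-2*, -0.15 for *cpt-4*, 0.23 for *cpt-5* and 0.52 for *cpt-6*. For *cpt-6*, exposed L3 libraries had 32.9, 31.9 and 30.1 CPM, against 17.3, 17.4 and 30.3 CPM in unexposed ones, so that unexposed replicate 3 alone lay among the exposed libraries. The 5 *acbp* genes tested had log2 fold changes between -0.32 and -0.11, and none passed. The 8 members not tested at L3 were *cpt-3* and 7 genes that had almost no reads in L3 libraries.

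In L4 worms, 0 of the 63 members tested were called higher and 0 lower, where 0.037% and 0.00617% of all genes were called. At an unadjusted p below 0.05 there were 17 members (27%, against 26.8% of all genes), 8 of them with a higher and 9 with a lower value in exposed worms. The median log2 fold change was 0.08 over the 63 members and 0.03 over all genes tested. Exposed libraries lay above every unexposed one in 10 members (15.9%, against 18% of all genes) and below every one in 12 (19%, against 18.8% of all genes). DESeq2's Wald test called 0 members higher and 1 lower, where it called 0.981% of all genes higher and 0.277% lower. That gene was *acs-1*, a synthetase known to act on monomethyl branched-chain fatty acids, which worms need in order to grow. *acs-1* had 59.4, 66.4 and 70.02 CPM in exposed L4 libraries, against 98.2, 202 and 94.3 CPM in unexposed ones, where replicate 2 stood well above the others. Its log2 fold change was -0.98 ± 0.26 (SE, adjusted p = 0.101, quasi-likelihood test).

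The 5 members with the lowest p at L4 were *ech-7*, *cpt-4*, *acs-23*, *acs-16* and *hacd-1*, and each had a fold below 2. *ech-7* (chrI:14367608-14369773, reverse strand), an enoyl-CoA hydratase gene, had 60.8, 69.03 and 75.6 CPM in exposed L4 libraries, against 129, 131 and 102 CPM in unexposed ones. All exposed libraries were below all unexposed ones (log2 fold change -0.79 ± 0.11, SE, adjusted p = 0.0524 with the quasi-likelihood test and 2.32e-05 with DESeq2's Wald test). *cpt-4* (chrV:5023706-5027723, reverse strand) had 80.6, 69.99 and 69.8 CPM in exposed L4 libraries, against 46.8, 38.5 and 47.3 CPM in unexposed ones. Here the exposed libraries were all above the unexposed ones (log2 fold change 0.76 ± 0.12, SE, adjusted p = 0.0547 with the quasi-likelihood test and 7.71e-05 with DESeq2's Wald test). *acs-16* had 11.2, 9.44 and 10.6 CPM in exposed L4 libraries, against 7.06, 5.53 and 7.35 CPM in unexposed ones, and *acs-23* had 3.85, 3.78 and 3.78 CPM in exposed against 2.42, 2.5 and 2.38 CPM in unexposed ones. Both were separated by group, with log2 fold changes of 0.67 ± 0.16 and 0.67 ± 0.15 (SE). *hacd-1*, the hydroxyacyl-CoA dehydrogenase gene, had lower values in exposed worms at both stages without passing at either. It had 41.7, 51.3 and 54.7 CPM in exposed L4 libraries, against 79.2, 117 and 65.7 CPM in unexposed ones, and 38.97, 49.1 and 66.96 CPM in exposed L3 libraries, against 69.8, 82.04 and 85.9 CPM in unexposed ones. Its log2 fold changes were -0.79 ± 0.19 at L4 and -0.63 ± 0.19 at L3 (SE), and the groups were apart at both stages. With DESeq2's Wald test the adjusted p at L4 was 0.00444 for *hacd-1*, 0.0137 for *acs-16* and 0.0468 for *acs-23*, so that these members, like *ech-7* and *cpt-4*, missed its call by the fold minimum alone. In the same libraries the 3 body muscle markers summed to 6810 to 7703 CPM in exposed and 3865 to 5684 CPM in unexposed L4 worms, without overlap, and had log2 fold changes of 0.69 for *myo-3*, 0.55 for *unc-54* and 0.52 for *unc-15*, none of which passed. Their part in the L4 values of the members was not tested.

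**Figure D2:**
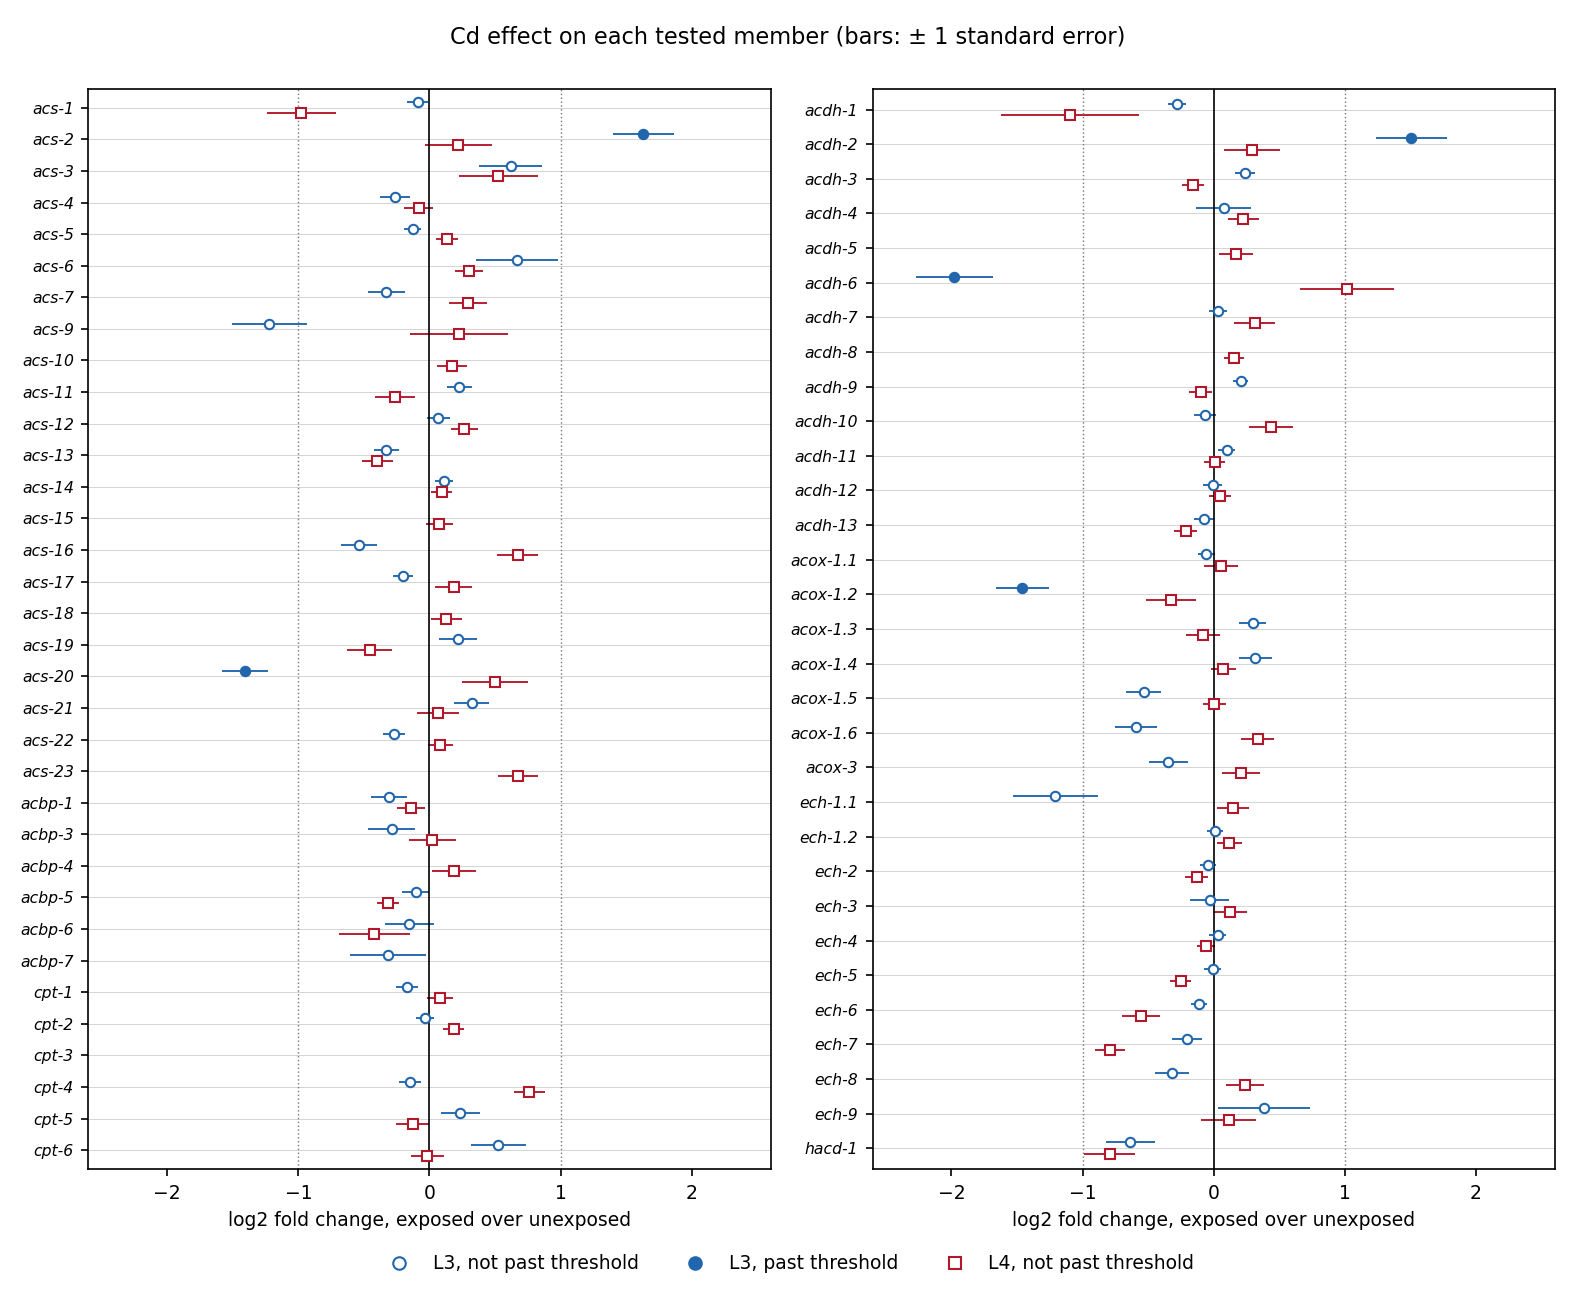
Log2 fold change of exposed over unexposed worms (x axis, bars ± 1 standard error) for every tested member at L3 (blue circles) and at L4 (red squares), with dotted lines at the fold threshold and filled symbols for members past it. At L3 *acs-2* and *acdh-2* stand to the right and *acs-20*, *acox-1.2* and *acdh-6* to the left as filled symbols, whereas no L4 symbol is filled.

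The Cd effect at L3 was set against that at L4 in 1 fit of the 12 libraries, which tests the first minus the second. Of the 64 members tested, 3 were called higher for this difference (4.69%, against 0.634% of all genes) and 5 lower (7.81%, against 5.6% of all genes). The 3 higher calls include *acbp-4*, which passed the filter on low counts only through its L4 libraries. *acs-2* and *acdh-2*, higher in exposed worms at L3, did not pass at L4. *acs-2* had 31.9, 50.3 and 58.7 CPM in exposed L4 libraries, against 27.97, 52.3 and 43.2 CPM in unexposed ones, and the difference between the effects was 1.43 ± 0.38 (SE, adjusted p = 0.0324, quasi-likelihood test). *acdh-2* had 29.6, 41.4 and 48.2 CPM in exposed L4 libraries, against 40.7, 24.9 and 33.2 CPM in unexposed ones, with a difference of 1.22 ± 0.37 (SE, adjusted p = 0.0475, quasi-likelihood test). In both genes the L4 groups overlapped.

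The members lower at L3 did not pass at L4 either. *acdh-6* had 13.1, 6.55 and 6.73 CPM in exposed L4 libraries, against 6.03, 2.69 and 4.52 CPM in unexposed ones, so that its exposed libraries were below the unexposed ones at L3 and above them at L4. The difference between the effects was -2.98 ± 0.50 (SE, adjusted p = 0.00468, quasi-likelihood test). *acs-20* had 41.5, 25.7 and 25.6 CPM in exposed L4 libraries, against 28.3, 16.5 and 22.1 CPM in unexposed ones, which overlapped, and a difference of -1.89 ± 0.33 (SE, adjusted p = 0.00494, quasi-likelihood test). *acs-16*, not called at either stage alone, had 13.97, 15.9 and 17.7 CPM in exposed L3 libraries, against 25.5, 23.5 and 19.2 CPM in unexposed ones. With the opposite order at L4 its difference was -1.199 ± 0.21 (SE, adjusted p = 0.0055, quasi-likelihood test). *acox-1.2* at L4 had 26.9, 24.9 and 25.6 CPM in exposed and 31.7, 43.99 and 23.6 CPM in unexposed libraries, and *ech-1.1* had 11.3, 10.6 and 10.6 CPM in exposed and 10.9, 9.51 and 9.49 CPM in unexposed ones. Their differences were -1.11 ± 0.31 and -1.34 ± 0.32 (SE, adjusted p = 0.0364 and 0.0195, quasi-likelihood test).

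The remaining call for the difference between the stages, *acbp-4*, an acyl-CoA binding protein gene, rests on very few reads. *acbp-4* had 7, 7 and 9 counts in exposed L3 libraries, against 0, 0 and 1 counts in unexposed ones, while L4 libraries had 167 to 182 counts in exposed and 137 to 173 counts in unexposed worms. It was not tested at L3 and passed the filter on low counts only through its L4 libraries, with unexposed L3 libraries at or under the floor of 3 counts. Its fitted difference therefore depends on the prior count. That value is listed only among the flagged results, without a p. The gene shares 11 bases with *B0361.2* on the opposite strand, which had up to 2568 counts. Leaving out 1 library at a time, *acdh-6*, *acs-20* and *acs-16* were called in all 12 fits, *ech-1.1* in 9, *acs-2* in 5, *acdh-2* in 3 and *acox-1.2* in 2. *cpt-4* had an adjusted p of 0.00431 (quasi-likelihood test) but a difference of -0.90 ± 0.15 (SE), under the fold threshold.

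The propionate shunt genes were followed with the vitamin B12 route as a list of 11 genes, of which *acdh-1* and *ech-6* are members. With Cd, 0 of the 11 were called at L3 or at L4. *acdh-1* (chrI:6497436-6499560, forward strand) encodes the first enzyme of the shunt. It had 19.9, 94.5 and 123 CPM in exposed L4 libraries, against 228, 145 and 141 CPM in unexposed ones, and 606, 565 and 580.1 CPM in exposed L3 libraries, against 676, 685 and 743 CPM in unexposed ones. Exposed libraries were below unexposed ones at both stages, with log2 fold changes of -1.095 ± 0.53 at L4 and -0.28 ± 0.069 at L3 that did not pass (SE, adjusted p = 0.215 and 0.0542, quasi-likelihood test). At L4 the exposed replicate 1 stood far below the other exposed libraries. Over all genes with enough counts, this library also differed from exposed L4 replicates 2 and 3, by a chi-square per degree of freedom of 50.4 and 43.6. The value was 3.22 between replicates 2 and 3, and 30.1 to 79.7 between unexposed L4 libraries. The part of this wider difference in the shunt values was not tested. *ech-6* (chrIII:9751440-9752922, reverse strand), the hydratase of the shunt, had 134, 184 and 202 CPM in exposed L4 libraries, against 286, 250.3 and 239 CPM in unexposed ones (log2 fold change -0.55 ± 0.15, SE, adjusted p = 0.0992, quasi-likelihood test). *hphd-1*, which encodes the next dehydrogenase of the shunt, had 56.8, 97.1 and 118 CPM in exposed L4 libraries, against 174, 175 and 149 CPM in unexposed ones, with replicate 1 again the lowest of the exposed libraries. *hach-1*, the hydrolase gene between them, had 87.03, 123 and 132 CPM in exposed L4 libraries, against 150.1, 161 and 136 CPM in unexposed ones. The exposed L4 libraries were thus lower in all of these 4 genes, none of which passed the test. *alh-8*, the last gene of the shunt, had 715, 842 and 832 CPM in exposed L4 libraries, against 696, 973 and 889 CPM in unexposed ones, and the groups overlapped. Over the 11 genes the median log2 fold change with Cd was -0.20 at L4 and 0.10 at L3, against 0.03 and 0.01 over all genes tested.

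**Figure D3:**
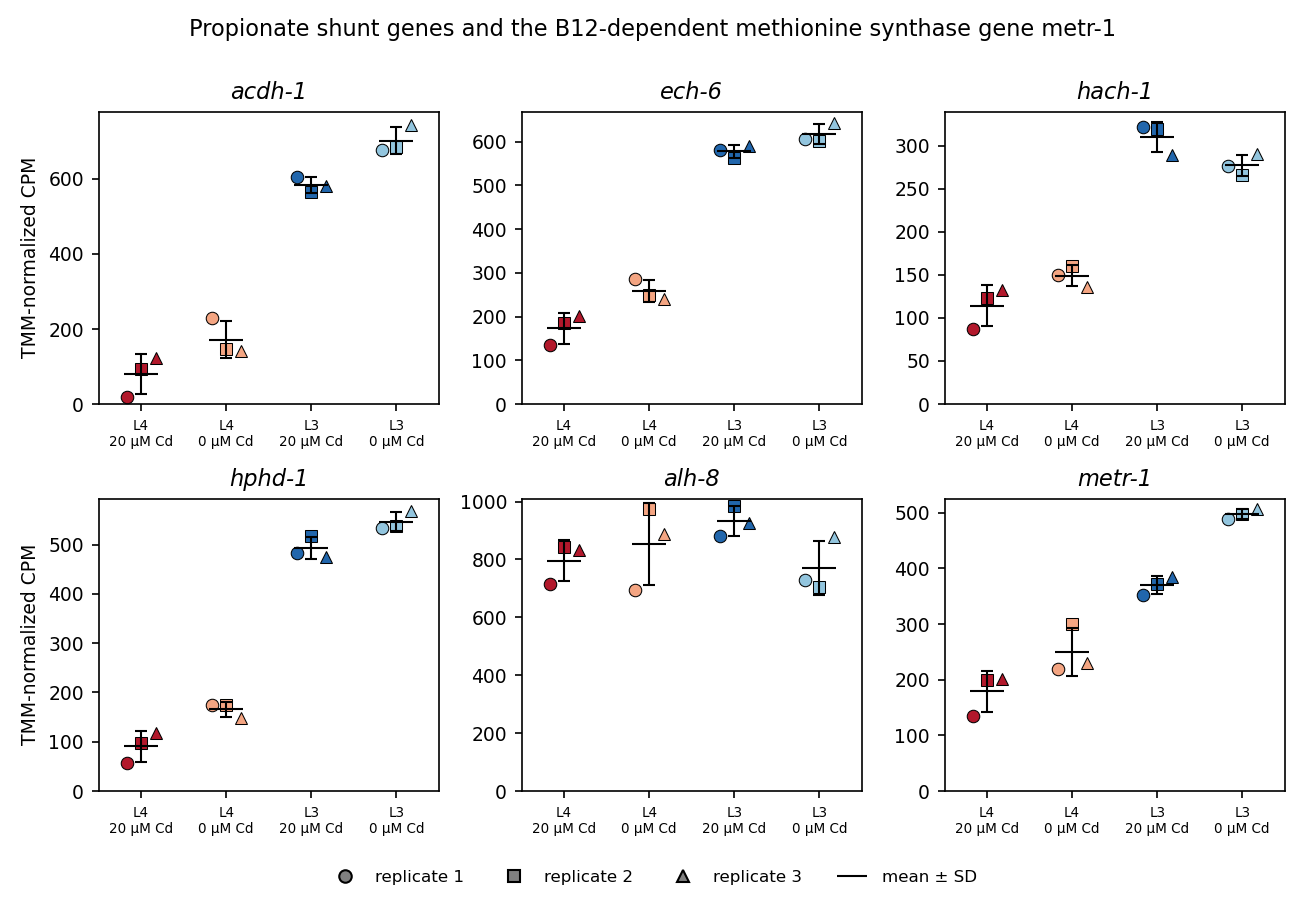
TMM-normalized CPM (linear axes from 0) of 5 propionate shunt genes and of *metr-1*, the B12-dependent methionine synthase gene, in the 12 libraries, with points for replicates and bars for mean ± SD (n = 3). Except for *alh-8*, every L4 library lies below every L3 library, and exposed replicate 1 (circle) is the lowest L4 library for *acdh-1*, *ech-6*, *hach-1*, *hphd-1* and *metr-1*.

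More members were called between the stages than with Cd. In exposed worms 13 of the 64 members tested were called higher at L4 than at L3 (20.3%, against 25.5% of all genes) and 13 lower (20.3%, against 22.6%). In unexposed worms 15 were higher (23.4%, against 28.5% of all genes) and 20 lower (31.2%, against 27.9%). These comparisons share no libraries. The sign was the same in 59 of the 64 members, 12 members were called higher in both and 11 lower in both, 2 were called in exposed and not in unexposed worms and 11 in unexposed and not in exposed worms. The like counts over all genes were not made, so this agreement cannot be called particular to the members. It also takes in members that passed the filter on low counts only through L4. The difference between these stage effects was called for 8 members, named above. *acdh-6* was called in opposite directions, with log2 fold changes of L4 over L3 of 1.38 ± 0.28 in exposed and -1.51 ± 0.36 in unexposed worms (SE, adjusted p = 0.00125 and 0.00444, quasi-likelihood test). With DESeq2's size factors the median of all genes moved by 0.139 in unexposed and 0.107 in exposed worms on the log2 scale, and 15 members were then called lower in unexposed worms.

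A group of synthetase and dehydrogenase genes was almost without reads at L3 and clearly present at L4. These members passed the filter on low counts only through L4, so their difference is given as a level. *acdh-8* (chrII:5794495-5796185, forward strand) had 66.2, 61.8 and 61.3 CPM in exposed and 58.5, 58.9 and 56.1 CPM in unexposed L4 libraries, and at most 2 counts in any L3 library. Against a floor of 3 counts per L3 library it was at least 776-fold higher at L4 in exposed and at least 591-fold higher in unexposed worms. *acs-18* (chrIV:10310772-10313670, reverse strand) had 32.98, 30.7 and 30.5 CPM in exposed and 33.04, 29.5 and 25.2 CPM in unexposed L4 libraries, at least 386-fold and 299-fold above that floor. *acs-15* (chrII:933018-936989, forward strand) had 16.4, 17.1 and 15.9 CPM in exposed and 17.1, 15.4 and 15.2 CPM in unexposed L4 libraries, with 0 counts in all 6 L3 libraries. The bound for *acs-15* was at least 202-fold higher in exposed and 162-fold higher in unexposed worms, and that for *acs-23*, also at 0 in all L3 libraries, was at least 46.7-fold and 24.8-fold higher. *acs-18* and *acs-23* lie near each other on chromosome IV, on the same strand. *acbp-4* was at least 42.2-fold higher at L4 in unexposed worms.

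Other members with some reads at L3 followed the same order. *acs-10* had 48.96, 38.5 and 40.4 CPM in exposed and 39.9, 37.4 and 38.4 CPM in unexposed L4 libraries, against 0.238, 0.121 and 0.163 CPM in exposed and 0.37, 0.17 and 0.171 CPM in unexposed L3 libraries, so that no L3 library had even 1 CPM. *acdh-5* had 22.7, 18.1 and 18.8 CPM in exposed and 18.3, 16.8 and 18.9 CPM in unexposed L4 libraries, with at most 6 counts in an L3 library. *acs-6* had 30.6, 27.9 and 25.1 CPM in exposed and 23.5, 23.5 and 22.3 CPM in unexposed L4 libraries, and its log2 fold change of L4 over L3 was 5.09 ± 0.17 in exposed and 5.54 ± 0.23 in unexposed worms (SE, adjusted p = 2.96e-09 and 2.9e-07, quasi-likelihood test). *acdh-4* and *ech-1.1* were higher at L4, by 3.54 and 3.73 in exposed worms and by 3.48 and 2.46 in unexposed worms on the log2 scale. Among the abundant members, *acs-13* and *acs-4* were higher at L4 too. *acs-13* had 358, 449 and 430.1 CPM in exposed and 494, 622 and 545 CPM in unexposed L4 libraries, against 102, 124 and 127 CPM in exposed and 143, 149.6 and 145 CPM in unexposed L3 libraries. *acs-4* had 304, 386 and 371 CPM in exposed and 346, 421 and 379.7 CPM in unexposed L4 libraries, against 97.9, 120.03 and 119.3 CPM in exposed and 141, 142 and 117 CPM in unexposed L3 libraries. For both genes the stages were far apart and the Cd effect did not pass.

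Markers of the germ line, and genes of yolk, moved with these members. Summed over *spe-9*, *spe-11*, *fer-1* and *gsp-3*, genes of sperm, the level was 196 to 239 CPM in exposed and 185 to 192 CPM in unexposed L4 libraries. In L3 libraries it was 1.31 to 1.96 CPM in exposed and 1.25 to 1.81 CPM in unexposed worms. All 4 were called higher at L4 in exposed and in unexposed worms. *spe-11* and *gsp-3*, with at most 0.114 and 0.0606 CPM in L3 libraries, passed the filter on low counts only through L4. Their calls therefore add nothing to their levels. Of all genes, 25.5% were called higher at L4 in exposed and 28.5% in unexposed worms. A list of 6 germline genes summed to 1591 to 2083 CPM in exposed and 2053 to 2509 CPM in unexposed L4 libraries, against 465 to 473 CPM and 391 to 429.9 CPM in exposed and unexposed L3 libraries, with 5 of 6 called higher in each. The 5 oocyte and yolk genes, summing to 15817 to 27283 CPM in exposed and 21699 to 43932 CPM in unexposed L4 libraries and to at most 32.1 CPM in an L3 library, were all called higher at L4 as well. Most of this L4 sum came from the yolk protein genes *vit-2*, *vit-5* and *vit-6*. The oocyte gene *rme-2* had 447, 646 and 616 CPM in exposed and 733, 969 and 782 CPM in unexposed L4 libraries. For *oma-1* these values were 156, 211 and 197 CPM and 211, 270 and 230 CPM. The part of the growing germ line in the values of the members was not tested.

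**Figure D4:**
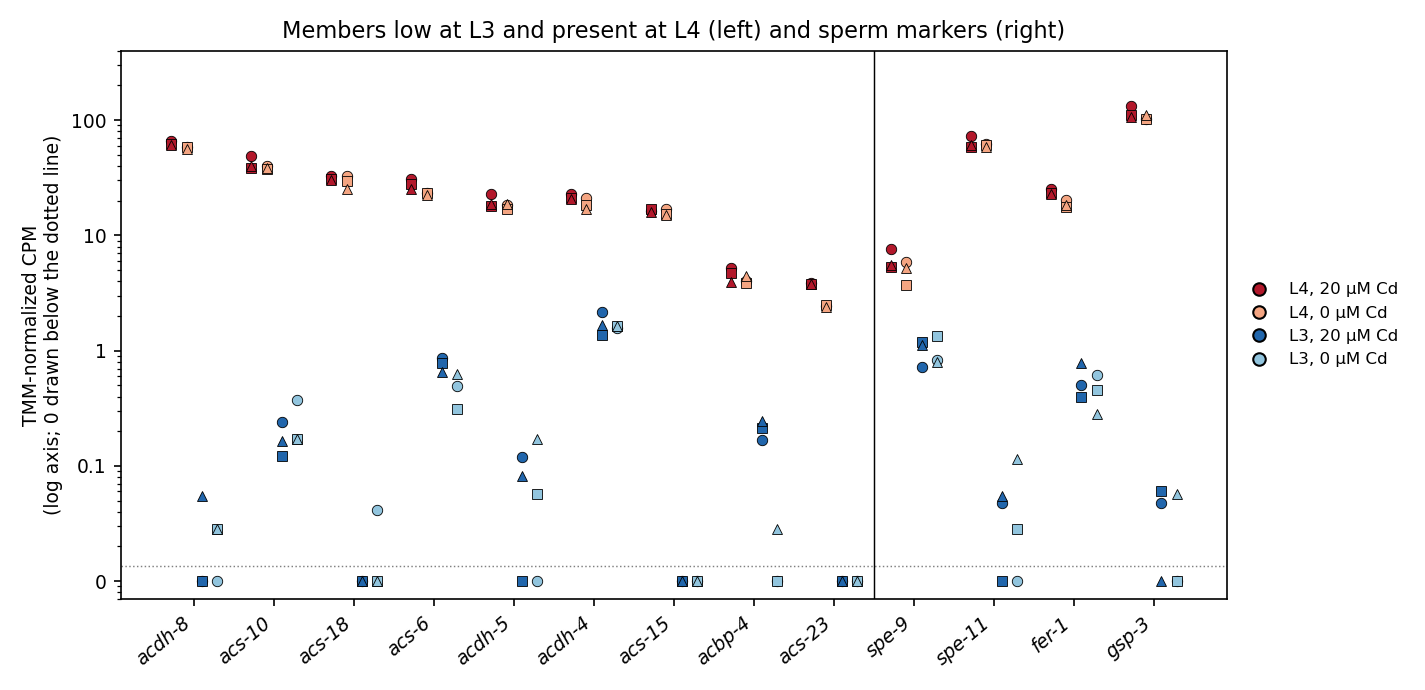
TMM-normalized CPM on a log axis (0 drawn below the dotted line) of 9 members and of 4 sperm markers in the 12 libraries, in the order exposed and unexposed L4, then exposed and unexposed L3. The 9 members have between 2.38 and 66.2 CPM in L4 libraries and at most 2.15 CPM in L3 libraries, and the sperm markers are also higher in every L4 library.

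Peroxisomal oxidase genes either had lower levels at L4 or did not pass. Of the 7 oxidases, 0 were called higher at L4, and 3 were called lower in exposed and 4 in unexposed worms, where 22.6% and 27.9% of all genes were called lower. *acox-1.2* was lower at L4, with log2 fold changes of -2.09 ± 0.09 in exposed and -3.13 ± 0.27 in unexposed worms (SE, adjusted p = 1.79e-08 and 1.57e-05, quasi-likelihood test). *acox-3* (chrIV:6245341-6248492, reverse strand) had 33.3, 31.4 and 32.4 CPM in exposed and 30.3, 22.8 and 32.4 CPM in unexposed L4 libraries, against 139, 117 and 98.6 CPM in exposed and 166, 153 and 126 CPM in unexposed L3 libraries, without overlap between the stages. *acox-1.4* had log2 fold changes of L4 over L3 of -1.46 in exposed and -1.13 in unexposed worms. In contrast, *acox-1.3* of the same gene row had log2 fold changes of 0.11 in exposed and 0.58 in unexposed worms and did not pass. *cpt-4* was also lower at L4, with log2 fold changes of -1.199 ± 0.097 in exposed and -2.02 ± 0.11 in unexposed worms (SE, adjusted p = 1.77e-06 and 1.32e-06, quasi-likelihood test), whereas *cpt-1* and *cpt-2*, the outer and inner carnitine palmitoyltransferases, had values of -0.10 and -0.02 in exposed and -0.27 and -0.15 in unexposed worms.

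The other members lower at L4 had the following values. *acbp-3* had 25.7 ± 3.43 CPM in exposed and 25.8 ± 5.8 CPM in unexposed L4 libraries, against 95.7 ± 19.2 CPM in exposed and 115 ± 22.5 CPM in unexposed L3 libraries (mean ± SD, n = 3 each). *acs-7* had 38.5, 35.7 and 33.7 CPM in exposed and 31.9, 23.9 and 33.6 CPM in unexposed L4 libraries, against 124, 99.8 and 91.3 CPM in exposed and 145, 133 and 112 CPM in unexposed L3 libraries. Both genes were separated by stage in every library and were called lower with and without Cd. *acdh-1* and *ech-6* were lower at L4, with log2 fold changes of -2.97 and -1.83 in exposed and -2.08 and -1.301 in unexposed worms and adjusted p between 7.99e-07 and 0.000314 (quasi-likelihood test). *acs-20* was called lower at L4 only in unexposed worms (-2.13, against -0.32 in exposed worms), and *acs-2* only in exposed worms (-2.09, against -0.60 in unexposed worms). The difference between these stage effects is the same quantity as the difference between the Cd effects tested above. *acbp-7*, with at most 35 counts in any library, had log2 fold changes of -1.33 in exposed and -2.56 in unexposed worms and was called lower in both. The 6 hypodermis and moult markers summed to 204 to 277 CPM in exposed and 157 to 183 CPM in unexposed L4 libraries, and 4 of the 6 were called lower at L4 in exposed and 4 in unexposed worms. Their part in the values of these members was not tested.

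**Figure D5:**
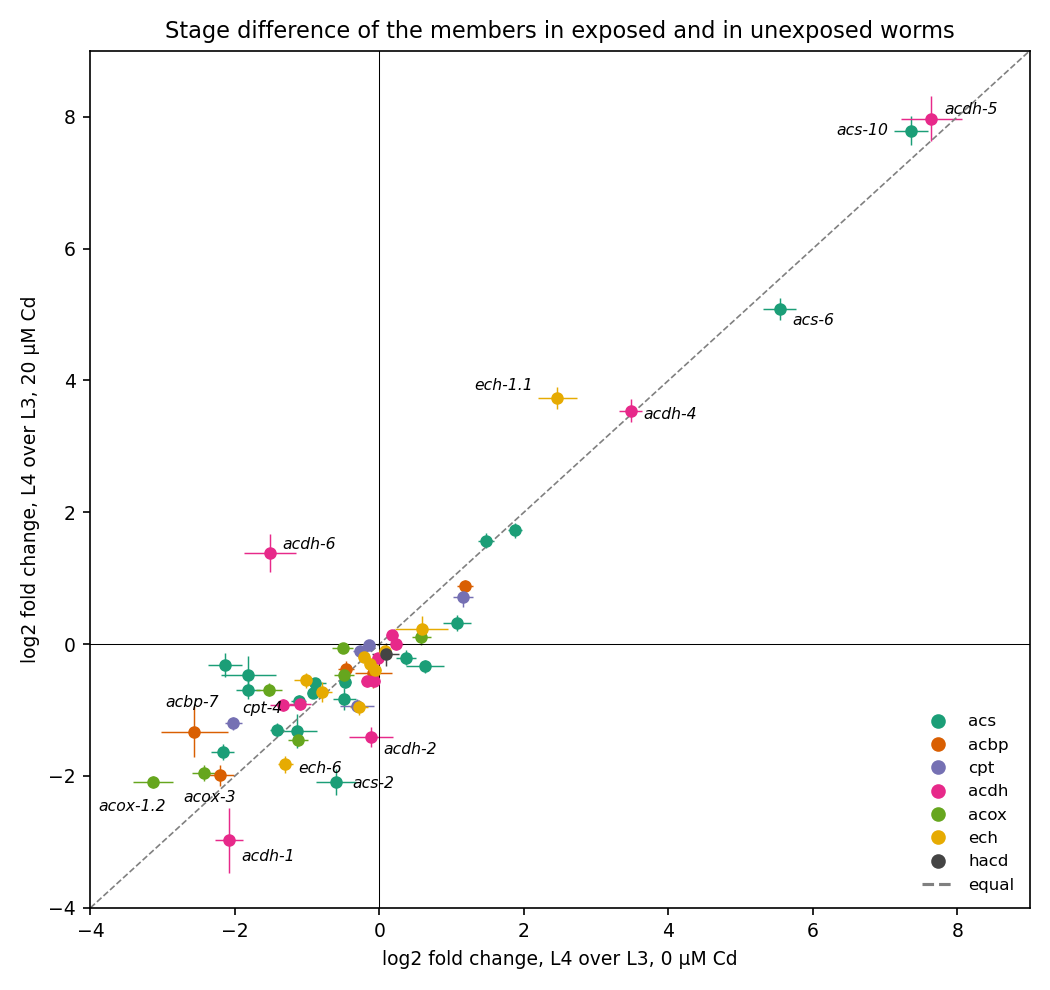
Log2 fold change of L4 over L3 in exposed worms (y axis) against that in unexposed worms (x axis) for the members tested, apart from the 5 at the floor of 3 counts in a group of L3 libraries, with ± 1 standard error bars, colours for the name classes and a dashed line of equal values. Most members lie near the line, *acs-10*, *acdh-5* and *acs-6* stand at the top right, and *acdh-6* lies above the line at 1.38 against -1.51, with *acs-2* and *acdh-2* below it. *acs-10* and *acdh-5* had at most 10 and 6 counts in an L3 library and passed the filter on low counts only through L4. Their positions therefore say nothing of agreement between exposed and unexposed worms.

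Partner genes of beta-oxidation outside the naming rule were counted in the same way. Of 10 such genes in the count files, 0 were called with Cd at L3 or at L4, and at L4 against L3 0 were higher, 4 were lower in exposed and 6 lower in unexposed worms, beside the same 22.6% and 27.9% of all genes. *pmp-4*, *ctl-2*, *maoc-1* and *prx-5*, genes of peroxisomal import and metabolism, were lower in both, with log2 fold changes of -1.29, -1.34, -1.27 and -1.03 in exposed and -2.13, -1.26, -1.19 and -1.05 in unexposed worms. *daf-22*, the peroxisomal thiolase gene that makes short-chain ascarosides, had 142, 130.4 and 124 CPM in exposed and 129, 98.1 and 159 CPM in unexposed L4 libraries, against 239, 241 and 219 CPM in exposed and 339, 335 and 248 CPM in unexposed L3 libraries. Its log2 fold change of L4 over L3 was -0.91 ± 0.087 in exposed and -1.299 ± 0.20 in unexposed worms (SE, adjusted p = 5.81e-06 and 0.000405, quasi-likelihood test), the first of which missed the fold minimum. *dhs-28*, the dehydrogenase gene of the same pathway, had values of -0.87 ± 0.078 in exposed and -1.04 ± 0.12 in unexposed worms (SE, adjusted p = 3.38e-06 and 7.81e-05, quasi-likelihood test) and missed the fold minimum in exposed worms likewise. The test of the difference between exposed and unexposed worms was not passed by either gene (adjusted p = 0.175 for *daf-22* and 0.247 for *dhs-28*, quasi-likelihood test). *kat-1*, the mitochondrial thiolase gene, had 221, 261 and 265 CPM in exposed and 266, 301 and 277 CPM in unexposed L4 libraries, against 303.1, 327 and 312 CPM in exposed and 261, 257 and 255 CPM in unexposed L3 libraries, with no call in any comparison. The median log2 fold change of L4 over L3 of the 10 genes was -0.89 in exposed and -1.04 in unexposed worms, against -0.01 and -0.07 over all genes tested.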

How the data were processed

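Poly-A RNA of the 12 libraries was sequenced as paired-end reads, and the authors trimmed them with Trimmomatic 0.36, mapped them to WBcel235 with STAR 2.5.2b and deposited raw gene counts made with featureCounts of Subread 1.5.2, according to the methods and the submitters' processing notes. The annotation release, strand setting and handling of multiply mapped reads are not given in the sources used here. An entry without a gene name (0.0148% to 2.01% of counts) was left out. The exposed libraries' source field names a Cd level of 0, so groups were taken from the titles. Within each group the closest libraries (exposed L4 replicates 2 and 3) differed by a chi-square per degree of freedom of 3.22, above sampling noise.

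Tests used edgeR 4.0.16 in R 4.3.3 (glmQLFit and glmQLFTest, TMM, filterByExpr with a minimum count of 10, Benjamini-Hochberg adjustment over all genes), on only the groups compared, or on all 12 libraries for the difference between stages. CPM and RPKM are TMM-scaled, except the CPM of *mtl-1* and the members' shares of counts, which use total counts. The standard error is the log2 fold change divided by the root of its F statistic. Alternatives were DESeq2 1.42.0, its size factors, no filter or a minimum count of 50, 1 fit of all libraries, a replicate block and leaving out each library. Tests were checked on simulated data. Members and gene lists (partner enzymes, propionate shunt, regulators, lipases and binding proteins, synthesis genes, tissue markers) were chosen with earlier results of these data known. Genes named are those past the threshold with Cd or for the stage difference, otherwise the 5 with the lowest p, up to 8 per direction between stages, the most abundant of each class, and *acdh-1*, *ech-6*, *acs-2* and the *cpt* genes. *acs-9*, *acs-22*, *acs-1*, *acs-4*, *acs-13*, *acdh-4*, *ech-1.2* and the *acox-1.2* neighbours were added after their values were seen.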

Additional observations from a re-analysis of the deposited data

Results flagged for a closer look

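For 8 members the difference between the effect of Cd at L3 and that at L4 was called in a direct test (quasi-likelihood test of edgeR, Benjamini-Hochberg adjusted, 12 libraries), and the cause was not tested for any of them. The effect at L3 minus that at L4 was positive for *acbp-4* (3.73 on the log2 scale, a value that depends on the prior count, with 0, 0 and 1 counts in unexposed L3 libraries), *acs-2* (1.43) and *acdh-2* (1.22). It was negative for *acdh-6* (-2.98), *acs-20* (-1.89), *ech-1.1* (-1.34), *acs-16* (-1.199) and *acox-1.2* (-1.11).

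The members called for their difference came from 5 of the 7 name classes, with *acbp* among them only through *acbp-4*. In *acdh-6* and *acs-16* every exposed library was lower at L3 and every exposed library higher at L4 than the unexposed ones of the stage. Without unexposed L3 replicate 3 the values were larger in size, at -3.25 for *acdh-6*, -2.08 for *acs-20* and 1.73 for *acs-2*.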

How the results depend on the processing

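No named member changed sign in any alternative. Of the 16 members named in each stage comparison, 7 (*acs-10*, *acs-15*, *acs-18*, *acs-23*, *acdh-5*, *acdh-8* and *acbp-4*) had almost no L3 counts, so that their fixed calls say nothing of stability. The other 9 kept their call in every alternative that tested them, and the 5 named at L4 with Cd stayed under the threshold in all 60. At L3 with Cd, 0 of the 5 called members kept the call in every fit, and the call was lost in 25 of 60 combinations of gene and fit. For the difference between the stages, *acdh-6*, *acs-16* and *acs-20* kept it in every fit. The L3 count of higher members (2) was 0 with the replicate block and 0 to 2 leaving out 1 library. The lower count (3) was 5 with DESeq2's Wald test, without the filter on low counts or in 1 fit of all 12 libraries, 0 with the replicate block and 0 to 5 leaving out 1 library. At L4 the count of higher members (0) was 1 without the filter and 1 with the replicate block, the lower count (0) was 1 with DESeq2 and 1 in the fit of all libraries, and both stayed at 0 leaving out 1 library. With the adjusted p alone, the lower count between stages in exposed worms (13) was 35 and the higher count for the difference between the stages (3) was 5. Leaving out 1 library, the difference gave 1 to 3 higher and 3 to 7 lower members. Calls over all genes in these alternatives are not given here, so changes in the member counts cannot be called particular to the members. For *acox-1.2* it was -0.997 with DESeq2, under the fold threshold. Replicate numbers were not taken as pairs in the main tests. Same-numbered libraries of exposed and unexposed worms deviated with correlations of 0.452, 0.392 and -0.111 at L4 and -0.238, 0.124 and -0.244 at L3. Differently numbered libraries at L4 had correlations from -0.478 to 0.31, below 0.452 and 0.392, so these values do not settle whether L4 replicates were paired. The replicate block left the counts of the other comparisons at 15 and 20, 13 and 13, and 3 and 5. At L4, several members below a fold of 2 in its fit passed the adjusted p alone with DESeq2 (*ech-7*, *cpt-4*, *hacd-1*, *acs-16*, *acs-23*, *acs-13*, *ech-6* and *acdh-6*) and 0 with the quasi-likelihood test. Low members such as *acbp-4* and *cpt-3* are limited by their few counts.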

Other observations

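Other genes of fat metabolism showed few changes with Cd. Of all genes tested, 0.246% were called higher at L3, 0.00617% lower at L4 and 0.634% higher for the difference between the stages. Of 14 lipase and fatty acid binding protein genes tested at L3, *lipl-4*, a lysosomal lipase gene, was higher, with 8.63, 7.69 and 7.4 CPM in exposed L3 libraries, against 1.36, 0.652 and 0.683 CPM in unexposed ones (log2 fold change 3.16 ± 0.27, SE, adjusted p = 0.0117, quasi-likelihood test of edgeR, Benjamini-Hochberg adjusted). At L4 *lipl-4* had 2.09, 2.5 and 2.63 CPM in exposed libraries, against 0.516, 0.112 and 0.482 CPM in unexposed ones, without overlap (log2 fold change 2.703 ± 0.41, SE, adjusted p = 0.0547, same test), and the test of the difference between the stages was not passed (adjusted p = 0.585, same test). Of 12 regulators of fat breakdown genes, *nhr-114*, a nuclear receptor gene, was lower at L4, with 16.5, 17.9 and 17.98 CPM in exposed libraries, against 40.9, 35.04 and 31.4 CPM in unexposed ones (log2 fold change -1.01 ± 0.12, SE, adjusted p = 0.0438, same test). It was the 1 gene called lower there of 16201 tested, with a fold close to the minimum. *nhr-49* itself had 94.2, 98.5 and 91.96 CPM in exposed L3 libraries, against 91.01, 89.4 and 87.9 CPM in unexposed ones, and was not called in any comparison. Of 18 synthesis, elongation and desaturation genes (16 tested at L3), 0 were called with Cd at either stage. The desaturase genes *fat-2* and *fat-3* were called for the difference between the stages (1.02 and 1.13 on the log2 scale). *fat-3* had 109, 132 and 129 CPM in exposed L4 libraries, against 149, 225 and 135 CPM in unexposed ones, and 271, 269 and 258 CPM in exposed L3 libraries, against 129, 142 and 219.7 CPM in unexposed ones. *lbp-7* had the opposite sign (-1.06), the direction in which 5.6% of all genes were called.

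Between the stages, 3 synthesis genes (*elo-7*, *elo-8* and *fat-7*) were called higher at L4 in exposed and in unexposed worms, while 4 were called lower in exposed (*fasn-1*, *elo-4*, *fat-2* and *fat-3*) and 2 in unexposed worms (*elo-4* and *elo-9*). Of all genes, 25.5% were called higher and 22.6% lower in exposed worms, and 28.5% higher and 27.9% lower in unexposed worms. *elo-7* and *elo-8* were nearly without reads at L3 and passed the filter on low counts only through L4. *elo-8*, an elongase gene, had 16.1, 15.7 and 14.1 CPM in exposed and 18.5, 13.3 and 14.2 CPM in unexposed L4 libraries, and at most 0.17 CPM in L3 libraries. Of the tissue markers, 0 of the 7 intestine, 3 muscle and 3 neuron genes were called with Cd at L3 or at L4, although the muscle genes had higher values in exposed L4 libraries, as given above.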
